A study of Capra hircus with 6 samples.

Results

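The 38 genes described here mark or direct blood and lymphatic vessels: growth factors and their receptors, junction and surface proteins of endothelial cells, adhesion and clotting proteins, transcription factors, and the genes of lymphatic endothelium. They were taken by symbol from the gene column of the deposited table, and 37 of the 38 were present among 26951 genes, each represented by its transcript row with the largest total. ICAM2, an adhesion molecule of endothelium, was not listed under its symbol and has no value here. Total RNA was taken from skin with hair follicles, after removal of ribosomal RNA, from Boer and Macheng Black crossbred goats, which have black heads and white bodies. Black-coated skin gave 3 libraries, called black replicates 1 to 3, and white-coated skin gave another 3, called white replicates 4 to 6, and the comparison asked which transcripts differ between the regions. Age, body site and the number of goats are not given in the labels, so coat colour and body site cannot be told apart and p-values measure only how far these samples spread, which may in part be technical.

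Blood vessels and lymphatic vessels are lined by related but distinct endothelial cells. VEGFA acts through KDR to make blood vessels sprout, VEGFC acts through FLT4 on lymphatic vessels, and the angiopoietins act through TEK to settle or loosen the vessel wall. PROX1 sets lymphatic identity, while Notch and apelin signals divide sprouting from resting blood endothelium. In skin, vessels feed the dermis and the hair follicle, and the network around the follicle is known in mice to grow and shrink with the hair cycle.

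Reads assigned to genes numbered between 12648817 and 22085079 per library, and 15778 genes had enough reads to be tested with edgeR's quasi-likelihood test, in which 0 genes passed an adjusted p of 0.05 over all genes. Black replicate 1 stood apart from the other 5 libraries: markers of the hair shaft and root sheath lay -3.06 log2 units from the mean of all libraries in it and between 0.33 and 0.98 in the others, while macrophage, mast cell and skin fat markers were highest in it. LOC108634721, described as Y-linked, had 688 to 934 reads in black replicate 2 and the white libraries and 0 or 1 read in black replicates 1 and 3, so the groups differ in this too. Levels are in CPM, read counts scaled to a common library size. A log2 fold change sets black over white and stands beside its standard error (SE).

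None of the vessel genes passed the test between black- and white-coated skin. All 37 had enough reads to be tested, and 0 passed over all genes by edgeR, by DESeq2 or by limma-voom, against 0% of all genes tested by edgeR and 0.494% by DESeq2. At an unadjusted edgeR p under 0.05 there were 2, SELP (higher in black-coated skin) and APLN (lower), against 3.4% of all genes (1.65% higher and 1.75% lower), which is a share near that background. A higher mean in black-coated skin was seen for 22 members and a lower one for 15, against 53% and 47% of all genes, with a median log2 fold change of 0.08, against 0.02 over all genes tested. The 3 black and 3 white values did not overlap for ENG (higher) and APLN (lower), 2 of 37, against 8.8% of all genes (3.81% higher and 4.99% lower). Standard errors ran from 0.18 to 0.72 log2 units, which bounds what 3 libraries per group could detect.

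The black libraries differed from each other far more than the white libraries did. The highest black level was a median of 2.19 times the lowest over the 37 genes, against 1.28 times among the white libraries. The black range was the wider in 35 of the 37, against 77% of all genes with reads in every library. Black replicate 1 had the highest of the 6 levels for 26 of the 37 genes, against 30.3% of all genes. It had the lowest level for 2 members, DLL4 and JAG1, against another 30.3% of all genes. The lowest level lay in black replicate 2 for 15 members, against 21.2% of all genes, and in black replicate 3 for 12, against 18.2%. The members were measured in the same libraries, so these counts are not independent of each other, and in bulk skin fewer vessel cells and less RNA per cell cannot be told apart.

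**Figure D1:**
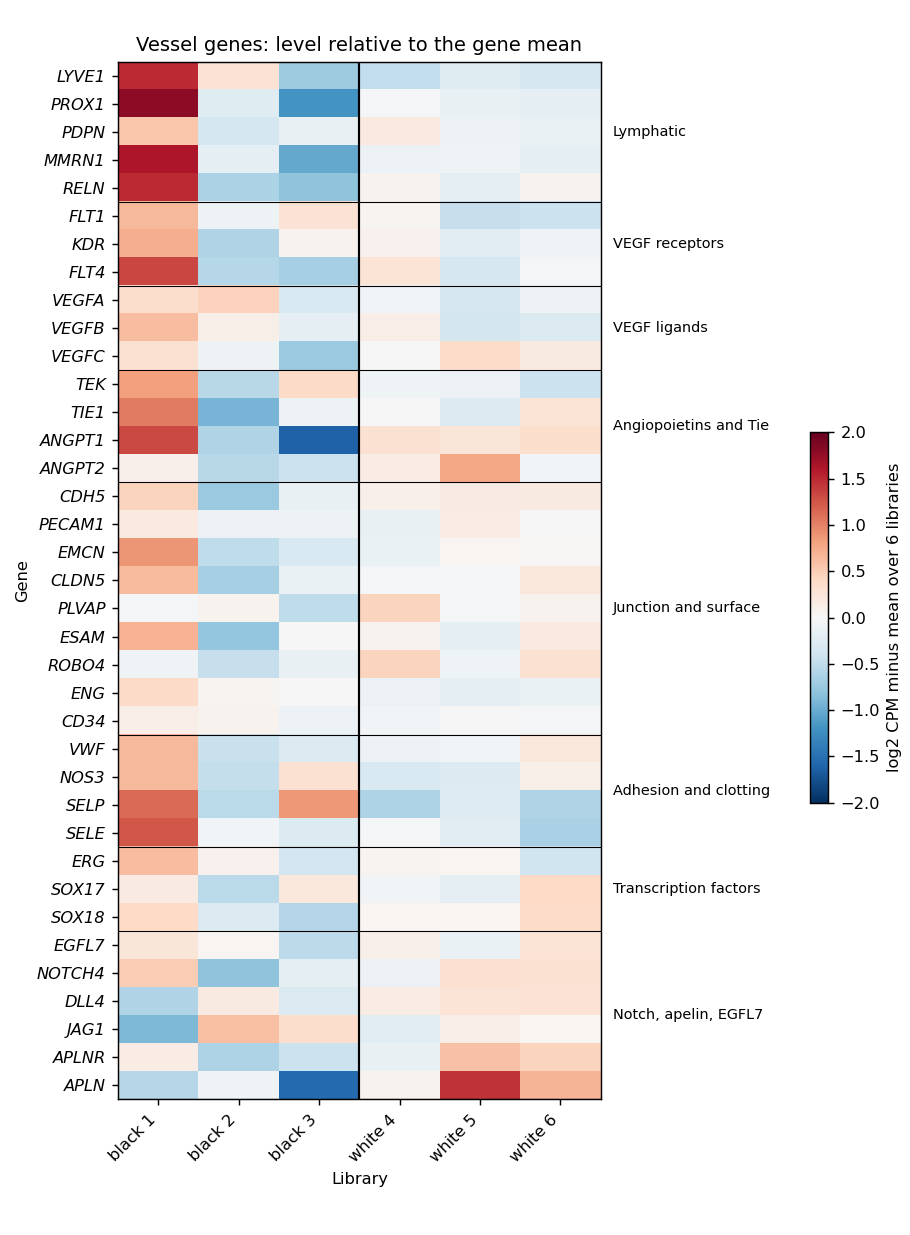
Level of each of the 37 vessel genes (rows, by role) in the 3 black and 3 white libraries (columns), as log2 CPM minus the mean of that gene over the 6 libraries, with red above and blue below the mean and values past 2 drawn at the end of the scale. Black replicate 1 is the reddest column, with the highest level for 26 of the 37 genes, and the 3 white columns are pale.

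The direction of the group difference was not stable, and leaving out black replicate 1 moved it most among the settings that left out 1 library. Without it, 26 of the 37 members had a lower and 11 a higher mean in black-coated skin, against 50.3% and 49.7% of all genes, with a median log2 fold change of -0.36 against -0.0029 over all genes. In that setting 10 members were lower at an unadjusted edgeR p under 0.05, against 5.28% of all genes, and 0 passed over all genes, where 16 of 16022 genes passed (0.0999%), of them 2 lower (0.0125%). No member passed without black replicate 2 or without white replicate 4 either, where 0.0369% and 0.00625% of all genes passed. In 16 members both remaining black values lay below all 3 white values, against 14.5% of all genes. JAG1 alone among the members was higher at an unadjusted p under 0.05. With all 6 libraries the median was 0.08 by edgeR and -0.0077 by limma-voom, where 18 members had a higher and 19 a lower mean. By edgeR without black replicate 2 it was 0.23 and without black replicate 3 it was 0.18. With the Y-linked reads as a term beside coat colour, a setting in which only black replicate 2 bears on the difference, the median was -0.34 and 28 members averaged less in black-coated skin.

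**Figure D2:**
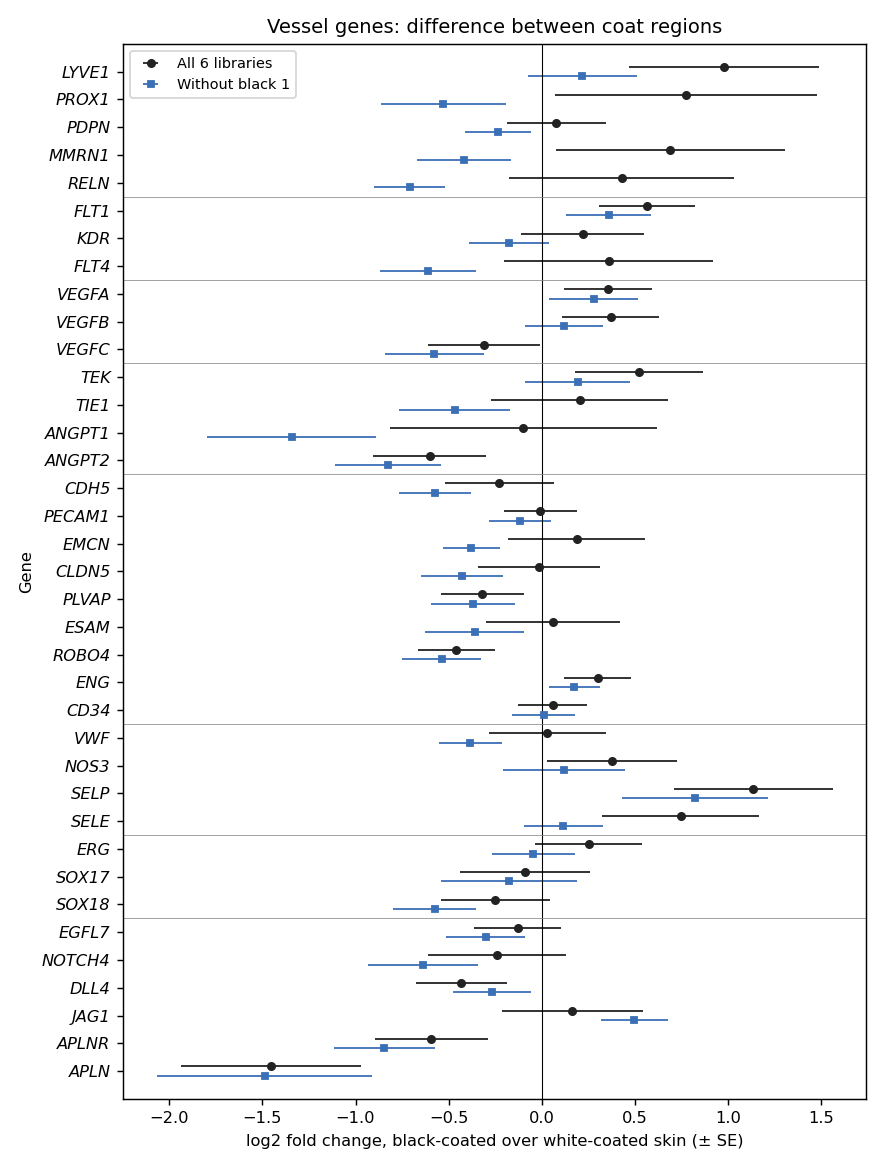
Log2 fold change of each vessel gene, black-coated over white-coated skin (x axis, points with bars of 1 SE), with all 6 libraries (black circles) and without black replicate 1 (blue squares), genes grouped by role down the page. The blue squares lie left of the circles for most genes, and 26 of the 37 squares lie below 0, against 15 of the circles.

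By the median fold range, the lymphatic genes varied more than the blood vessel genes among the black libraries and less among the white ones. FLT4 went the other way among the white libraries, with a fold range of 1.53. The median fold range of LYVE1, PROX1 and FLT4 was 4.64 among the black and 1.18 among the white libraries, and that of the 26 blood vessel members was 2.07 among the black and 1.31 among the white libraries. The mean log2 level of LYVE1, PROX1 and FLT4, relative to the mean of all libraries, was 1.54, -0.17 and -0.85 in black replicates 1, 2 and 3, against -0.08, -0.24 and -0.18 in white replicates 4, 5 and 6. The same mean over 26 blood vessel members was 0.43, -0.36 and -0.17 in black replicates 1, 2 and 3, against -0.01, 0.04 and 0.06 in white replicates 4, 5 and 6. Both sets were thus highest in black replicate 1, while the lymphatic set was lowest in black replicate 3 and the blood vessel set in black replicate 2.

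The lymphatic minus the blood vessel mean was 1.11, 0.18 and -0.69 log2 units in black replicates 1, 2 and 3, against -0.08, -0.28 and -0.24 in white replicates 4, 5 and 6. Black-coated skin averaged 0.20 ± 0.90 and white-coated skin -0.20 ± 0.11 log2 units (SD, n = 3 each), and the white values lay inside the black range. The difference of the group means was 0.40 log2 units with all libraries and -0.05 without black replicate 1, where its direction turned. The blood vessel set holds genes of endothelium in general, such as CDH5 and PECAM1, so it is not specific to blood vessels. No test was made on this contrast, since it is a score over chosen members. It kept the order black replicate 1, then 2, then the white libraries, then black replicate 3 when PDPN, MMRN1 and RELN were added to the lymphatic genes (0.95, 0.08 and -0.59 in black replicates 1 to 3, against -0.23 to -0.01 in the white libraries).

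**Figure D3:**
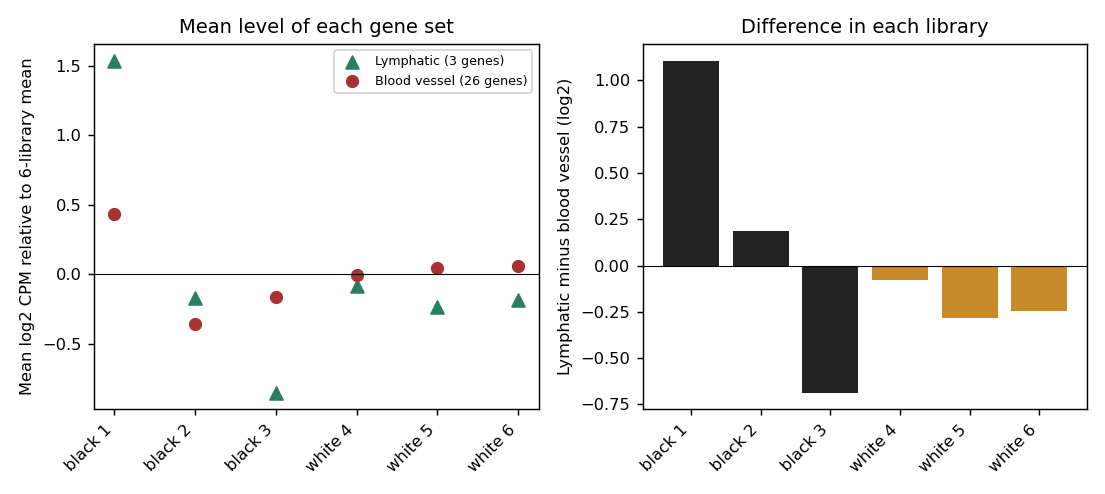
Left, mean log2 CPM of the 3 lymphatic genes (triangles) and of the 26 blood vessel genes (circles) in each library relative to the mean of the 6 libraries; right, the lymphatic minus the blood vessel mean in each library, black bars for black-coated and ochre bars for white-coated skin. The difference is 1.11 in black replicate 1 and -0.69 in black replicate 3, and the 3 white bars lie between these values.

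LYVE1, the hyaluronan receptor of lymphatic endothelium, which some tissue macrophages also carry, stood at 75.2, 32.6 and 16.2 CPM across black replicates 1 to 3, and 19.0, 22.4 and 21.2 CPM across white replicates 4 to 6. Its log2 fold change was 0.98, SE 0.51, and 0.22 without black replicate 1. Black replicates 1 and 2 lay above every white library and black replicate 3 below, so the groups overlapped. PROX1, the transcription factor that sets and keeps lymphatic identity, stood at 31.8, 7.82 and 4.03 CPM across black replicates 1 to 3, and 8.94, 8.34 and 8.15 CPM across white replicates 4 to 6. The 3 white values were close together, while black replicate 1 had 7.89 times the level of black replicate 3, the widest range of any member within the black group. The log2 fold change of PROX1 was 0.77, SE 0.70, and -0.53 without black replicate 1, so its direction turned. With all 6 libraries it was 0.09 by limma-voom and 0.23 on log2(FPKM + 1). FLT4, the receptor through which VEGFC acts, stood at 34.6, 9.18 and 8.62 CPM across black replicates 1 to 3, and 16.6, 10.9 and 13.2 CPM across white replicates 4 to 6. Black replicate 1 was again the highest, and black replicates 2 and 3 both lay below all white libraries (log2 fold change 0.36, SE 0.56, and -0.61 without black replicate 1).

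The other lymphatic genes followed the same order of libraries in part. MMRN1, a multimerin made by lymphatic endothelium, stood at 135, 38.8 and 21.6 CPM across black replicates 1 to 3, and 40.6, 41.7 and 38.3 CPM across white replicates 4 to 6. RELN, the secreted glycoprotein reelin, which lymphatic endothelium also releases, stood at 69.4, 15.9 and 14.2 CPM across black replicates 1 to 3, and 26.1, 21.7 and 25.9 CPM across white replicates 4 to 6. Black replicate 1 was thus above the other libraries for both genes, and both remaining black libraries lay below all white libraries for RELN. Without black replicate 1, RELN had the smallest p of all 37 members (log2 fold change -0.71, edgeR adjusted p = 0.364 over all genes). PDPN, podoplanin, which fibroblasts and basal keratinocytes express as well as lymphatic endothelium, stood at 61.1, 32.8 and 37.5 CPM across black replicates 1 to 3, and 47.6, 38.8 and 38.0 CPM across white replicates 4 to 6, the narrowest black range of these genes.

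Set against endothelial genes within a library, the lymphatic genes still differed among the black libraries. The ratio of PROX1 to CDH5 reads was 29.0%, 16.2% and 5.55% in black replicates 1 to 3, against 10.3%, 9.20% and 8.87% in white replicates 4 to 6. For LYVE1 to CDH5 it was 68.7%, 67.7% and 22.3% in black replicates 1 to 3, against 21.9%, 24.8% and 23.1% in white replicates 4 to 6. These ratios are not scaled to gene length and serve only to compare libraries. With PECAM1 in place of CDH5, the ratio of LYVE1 was 22.8%, 12.3% and 6.04% in black replicates 1 to 3, against 7.32%, 7.02% and 7.37% in white replicates 4 to 6. LYVE1 thus stood higher against both genes in black replicate 2 than in the white libraries, while PROX1 against PECAM1 was 2.95% in black replicate 2, inside the white range of 2.61% to 3.44%. The 13 macrophage markers in the table, of 15 listed, had a summed level of 1861, 752 and 246 CPM in black replicates 1 to 3, against 354 to 451 CPM in the white libraries. All 13 were highest in black replicate 1, against 30.3% of all genes, and none was at 0 in all libraries. At an unadjusted edgeR p under 0.05 there were 2 of 13, both higher in black-coated skin, against 1.65% of all genes: CD14 (log2 fold change 0.89, SE 0.33) and ITGAM (log2 fold change 2.17, SE 0.90). CD14 had 96.5, 49.7 and 41.6 CPM in black replicates 1 to 3 and 31.6, 36.7 and 32.7 CPM in white replicates 4 to 6. ITGAM had 48.5, 9.04 and 3.33 CPM in black replicates 1 to 3 and 4.72, 4.29 and 4.46 CPM in white replicates 4 to 6. Black replicate 2 thus lay above the white libraries for macrophage markers as it did for LYVE1. The part of macrophages in the LYVE1 levels was not tested.

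**Figure D4:**
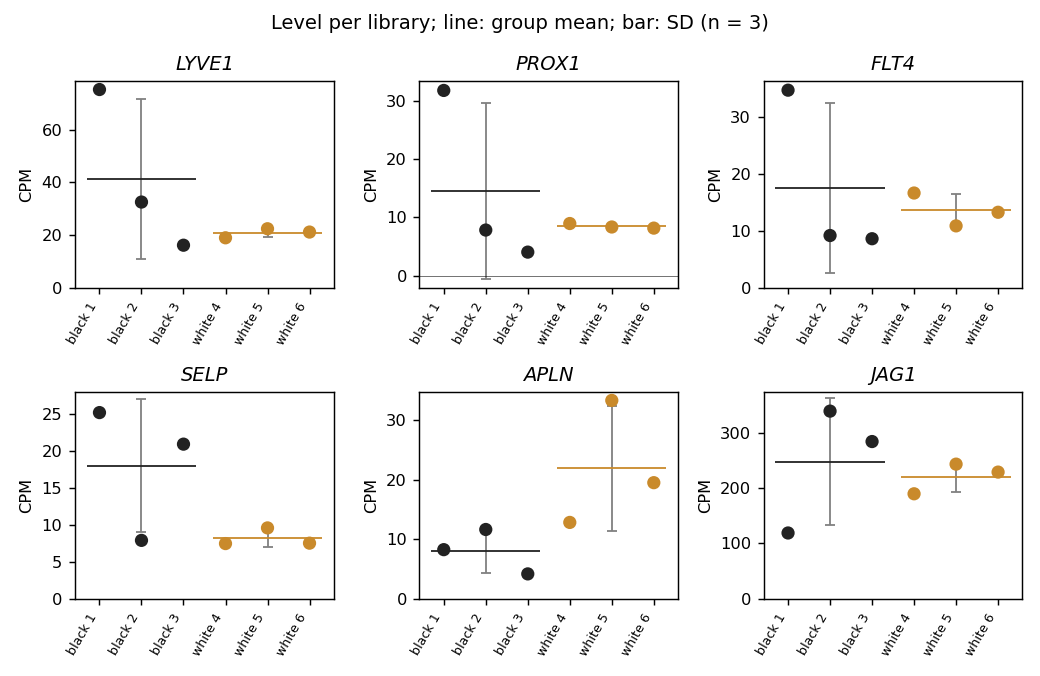
CPM (y axis, from 0) of LYVE1, PROX1, FLT4, SELP, APLN and JAG1 in each library, black-coated skin in black and white-coated skin in ochre, with a line at each group mean and a bar of 1 SD (n = 3). For the 3 lymphatic genes black replicate 1 is the highest point and black replicate 3 the lowest, SELP is high in black replicates 1 and 3, the 3 black APLN points lie below the 3 white ones, and JAG1 is lowest in black replicate 1.

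All 3 VEGF receptors had a mean that was higher in black-coated skin and none passed the test. FLT1, the receptor of VEGFA and VEGFB that acts largely as a decoy, stood at 41.2, 24.3 and 31.8 CPM across black replicates 1 to 3, and 27.2, 19.0 and 19.4 CPM across white replicates 4 to 6. Black replicates 1 and 3 were above all white libraries and black replicate 2 was within their range (log2 fold change 0.57, SE 0.26, and 0.36 without black replicate 1). KDR, the main signalling receptor for VEGFA, stood at 191, 75.5 and 120.1 CPM across black replicates 1 to 3, and 122, 99.3 and 110.1 CPM across white replicates 4 to 6. The lowest and the highest value of KDR were both from black-coated skin, and the log2 fold change was 0.22, SE 0.33, turning to -0.17 without black replicate 1.

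Of the 3 VEGF ligands, VEGFA and VEGFB had a higher and VEGFC a lower mean where the coat is black, and none passed the test. These ligands come largely from cells around the vessels. VEGFA, the growth factor that epidermis and hair follicle supply to vessels, stood at 53.0, 57.2 and 33.7 CPM across black replicates 1 to 3, and 40.2, 33.0 and 39.0 CPM across white replicates 4 to 6. Black replicates 1 and 2 lay above the white libraries and black replicate 3 within them (log2 fold change 0.36, SE 0.24, and 0.20 to 0.56 over the settings that left out 1 library each). VEGFB, a ligand of FLT1, stood at 56.1, 39.6 and 31.9 CPM across black replicates 1 to 3, and 40.3, 28.4 and 29.8 CPM across white replicates 4 to 6, and overlapped between the groups (log2 fold change 0.37, SE 0.26, and 0.12 without black replicate 1). VEGFC, the ligand of FLT4, stood at 17.2, 13.1 and 8.31 CPM across black replicates 1 to 3, and 13.9, 18.0 and 15.7 CPM across white replicates 4 to 6. VEGFC did not share the high level that its receptor had in black replicate 1, where it lay within the white range, and it was lowest in black replicate 3 (log2 fold change -0.31, SE 0.30, and -0.58 to -0.07 with 1 library left out at a time).

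TEK, TIE1 and ANGPT1 each spread more among the black libraries than the median member did, ANGPT2 spread less among the black than among the white libraries, and none of the 4 passed the test. TEK, the receptor of both angiopoietins, stood at 51.9, 19.9 and 38.3 CPM across black replicates 1 to 3, and 27.6, 27.3 and 21.8 CPM across white replicates 4 to 6, with black replicates 1 and 3 above and black replicate 2 below the white libraries (log2 fold change 0.52, SE 0.34, and 0.19 without black replicate 1). TIE1, its partner receptor with no firmly known ligand of its own, stood at 37.1, 9.47 and 16.9 CPM across black replicates 1 to 3, and 18.2, 14.9 and 22.0 CPM across white replicates 4 to 6. Black replicate 1 was highest for both receptors and black replicate 2 lowest. ANGPT1, the agonist made by cells around the endothelium, stood at 5.96, 1.58 and 0.779 CPM across black replicates 1 to 3, and 2.96, 2.82 and 3.05 CPM across white replicates 4 to 6. Its white values lay close together, while it was highest in black replicate 1 and lowest in black replicate 3 (log2 fold change -0.098, SE 0.72, and -1.34 without black replicate 1). ANGPT2, which endothelium releases when vessels are remodelled, stood at 16.6, 10.5 and 11.4 CPM across black replicates 1 to 3, and 17.2, 26.5 and 14.8 CPM across white replicates 4 to 6. Its mean was lower in black-coated skin in every leave-one-out setting (log2 fold change -0.60, SE 0.30, with a range from -0.83 to -0.32), but it did not pass the test and the groups overlapped.

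Of the 9 junction and surface genes, 4 had a higher and 5 a lower mean where the coat is black, and none passed the test. PECAM1, an adhesion protein of endothelial junctions that platelets and leukocytes also carry, stood at 329.5, 265 and 268 CPM across black replicates 1 to 3, and 259.8, 319 and 287 CPM across white replicates 4 to 6 (log2 fold change -0.0067, SE 0.19). CD34, a surface sialomucin of endothelium that dermal fibroblasts also carry, ran from 386 to 457 CPM in black-coated and from 402 to 422 CPM in white-coated skin. Among the black libraries these levels varied less than those of CDH5, the cadherin restricted to endothelial junctions. Among the white libraries PECAM1 varied more, with a fold range of 1.23 against 1.06 for CDH5. CDH5 stood at 109.6, 48.1 and 72.5 CPM across black replicates 1 to 3, and 86.8, 90.6 and 91.9 CPM across white replicates 4 to 6. CDH5 was lowest in black replicate 2 and highest in black replicate 1, and its log2 fold change was -0.23, SE 0.29, and -0.57 without black replicate 1.

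ENG, endoglin, the coreceptor of endothelium for TGF-beta family ligands, stood at 224, 179 and 173 CPM across black replicates 1 to 3, and 159, 150.5 and 158 CPM across white replicates 4 to 6. All 3 black values exceeded all 3 white values, but the difference did not pass (log2 fold change 0.30, SE 0.18, and 0.18 without black replicate 1). ROBO4, an endothelial guidance receptor that restrains leakage, stood at 30.2, 23.0 and 28.4 CPM across black replicates 1 to 3, and 43.2, 29.8 and 39.1 CPM across white replicates 4 to 6. Black replicates 2 and 3 lay below all white libraries and black replicate 1 just above the lowest of them (log2 fold change -0.46, SE 0.21). Of the other surface genes, EMCN (an endothelial sialomucin), CLDN5 (the endothelial tight junction claudin) and ESAM (a junction adhesion molecule) were each highest in black replicate 1 and lowest in black replicate 2, as CDH5 was. EMCN, for example, stood at 110.05, 41.9 and 48.0 CPM across black replicates 1 to 3, and 54.0, 60.9 and 60.5 CPM across white replicates 4 to 6. PLVAP, which forms the diaphragms of fenestrated and leaky capillaries, stood at 104, 113 and 75.0 CPM across black replicates 1 to 3, and 145, 105 and 113 CPM across white replicates 4 to 6, and was highest in white replicate 4.

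The 4 adhesion and clotting genes all averaged more in black-coated skin, none passed the test, and the log2 fold change of SELP was the highest of any member. SELP, the P-selectin that venule endothelium and platelets store and that lets leukocytes roll, stood at 25.2, 7.89 and 20.9 CPM across black replicates 1 to 3, and 7.46, 9.57 and 7.51 CPM across white replicates 4 to 6. Black replicates 1 and 3 were high and black replicate 2 lay within the white range (log2 fold change 1.14, SE 0.43, and 0.82 without black replicate 1). SELE, the E-selectin that inflamed endothelium makes, stood at 110.2, 44.9 and 38.5 CPM across black replicates 1 to 3, and 45.6, 39.8 and 29.8 CPM across white replicates 4 to 6. Only black replicate 1 was clearly above the other libraries for SELE (log2 fold change 0.75, SE 0.42, and 0.12 without black replicate 1). The genes of SELP and SELE lie close together, with 1 protein-coding gene between them in the ARS1.2 assembly of the goat.

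ACKR1, a chemokine-binding receptor of venule endothelium that is no member, stood at 9.65, 2.22 and 16.1 CPM across black replicates 1 to 3, and 3.24, 3.23 and 2.69 CPM across white replicates 4 to 6, the same high black replicates as SELP (log2 fold change 1.61, SE 0.65). Black replicates 1 and 3 are also the libraries with 0 or 1 read of the Y-linked gene. With that as a term only black replicate 2 bears on the difference, and the log2 fold change of SELP was -0.05. This value restates that black replicate 2 lay within the white range and is no test of the Y-linked difference. The part of that difference in the SELP levels was not tested. The platelet markers GP9 and CLEC1B had 0 reads in every library and PPBP was at or near 0, while the summed level of the 7 platelet markers listed in the table ran from 8.57 to 13.1 CPM in black-coated and from 9.34 to 14.6 CPM in white-coated skin. VWF, the clotting glycoprotein of endothelium, stood at 312, 146 and 166 CPM across black replicates 1 to 3, and 186, 192 and 232 CPM across white replicates 4 to 6 (log2 fold change 0.031, SE 0.31, and -0.38 without black replicate 1). NOS3, the endothelial nitric oxide synthase, stood at 11.9, 5.45 and 9.44 CPM across black replicates 1 to 3, and 6.15, 6.29 and 8.22 CPM across white replicates 4 to 6. Both were highest in black replicate 1 and lowest in black replicate 2.

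APLN had the lowest log2 fold change and the smallest p of the members. APLN, the apelin peptide that sprouting endothelial tip cells release, stood at 8.23, 11.6 and 4.16 CPM across black replicates 1 to 3, and 12.8, 33.3 and 19.5 CPM across white replicates 4 to 6. Every black value lay below every white value, but the 3 white values themselves spread by 2.60-fold (log2 fold change -1.46, SE 0.48). The fold change ran from -1.84 to -1.02 over the settings that left out 1 library each. APLNR, the apelin receptor, stood at 15.8, 9.32 and 10.7 CPM across black replicates 1 to 3, and 12.9, 21.6 and 19.5 CPM across white replicates 4 to 6. Black replicates 2 and 3 lay below all white libraries and black replicate 1 within them (log2 fold change -0.59, SE 0.30, and -0.85 without black replicate 1).

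Of the Notch members, the ligands DLL4 and JAG1 were lowest in black replicate 1 and the receptor NOTCH4 was highest there. Notch genes outside the member list did not share this split of ligand and receptor. The receptor NOTCH1 had 66.5, 218 and 242 CPM in black replicates 1 to 3 and 159, 186 and 168 CPM in white replicates 4 to 6. The ligand DLL1 had 11.5, 7.67 and 9.14 CPM in black replicates 1 to 3. DLL4, the Notch ligand of tip cells and arteries, stood at 11.6, 20.1 and 14.5 CPM across black replicates 1 to 3, and 19.6, 21.3 and 21.5 CPM across white replicates 4 to 6. It was lowest in black replicate 1, where most members were highest, and its log2 fold change was -0.43, SE 0.24, and -0.27 without black replicate 1. NOTCH4, the endothelial Notch receptor, stood at 13.6, 5.45 and 8.36 CPM across black replicates 1 to 3, and 8.76, 11.9 and 11.8 CPM across white replicates 4 to 6, and was highest in black replicate 1. JAG1, a Notch ligand that epithelium and hair follicle also make, stood at 119, 339.8 and 285 CPM across black replicates 1 to 3, and 190.04, 244 and 229 CPM across white replicates 4 to 6. JAG1 was lowest in black replicate 1, the library with the lowest level of hair shaft and root sheath markers. Those 8 markers summed to 842, 11121 and 16595 CPM in black replicates 1, 2 and 3, against 12703 to 14434 CPM in the white libraries, and their part in the JAG1 levels was not tested.

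The 3 transcription factors and EGFL7 each spread less among the black libraries than the median member did, and none passed the test. ERG, the ETS factor that keeps endothelial identity, stood at 48.5, 33.4 and 24.1 CPM across black replicates 1 to 3, and 32.7, 32.2 and 23.9 CPM across white replicates 4 to 6. SOX18, which switches on PROX1 in lymphatic development of mice, stood at 21.4, 13.5 and 10.8 CPM across black replicates 1 to 3, and 16.7, 16.6 and 21.0 CPM across white replicates 4 to 6. SOX18 was highest in black replicate 1 and lowest in black replicate 3, as PROX1 was, but over a far narrower range. SOX17, a factor of arterial endothelium, ran from 3.30 to 5.54 CPM in black-coated and from 4.17 to 6.31 CPM in white-coated skin. EGFL7, a protein that endothelium secretes into its matrix, ran from 45.7 to 78.0 CPM in black-coated and from 59.9 to 79.0 CPM in white-coated skin, a log2 fold change of -0.13, SE 0.23.

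Levels of different genes were compared by FPKM, in which fragments are divided by transcript length and library size, summed over the rows of a gene. CD34 was the most abundant member, with a lowest, median and highest FPKM over the 6 libraries of 123, 131 and 163, and its range did not overlap that of the next. PECAM1 followed with a median FPKM of 65.3, then PLVAP with 42.8 and ENG with 41.3, whose ranges overlapped. From PECAM1 down, every member's range overlapped that of its neighbour in the order, so neighbours did not differ beyond their spread. Of the VEGF and angiopoietin receptors, KDR had a median FPKM of 13.9, above TEK with 4.77, TIE1 with 3.27, FLT1 with 2.63 and FLT4 with 1.46. Of the ligands, VEGFB had 22.5, VEGFA 11.97 and VEGFC 6.83. The lymphatic genes ranged from 12.1 for PDPN and 7.35 for LYVE1 down to 0.852 for PROX1, and ANGPT1 had the lowest median of all members at 0.818.

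Other genes of the same pathways did not pass the test either. Of 23 tested genes of VEGF, Notch and TGF-beta signalling that are no members, 0 passed over all genes, 12 had a higher and 11 a lower mean where the coat is black, and the median log2 fold change was 0.02. At an unadjusted edgeR p under 0.05 there were 3, all lower in black-coated skin, against 1.75% of all genes. DLL1, a Notch ligand, stood at 11.5, 7.67 and 9.14 CPM across black replicates 1 to 3, and 21.3, 13.6 and 14.8 CPM across white replicates 4 to 6 (log2 fold change -0.81, SE 0.28). ANGPTL4, an angiopoietin-like inhibitor of lipoprotein lipase, stood at 16.3, 26.2 and 26.7 CPM across black replicates 1 to 3, and 53.0, 37.8 and 27.5 CPM across white replicates 4 to 6 (log2 fold change -0.77, SE 0.31). VEGFD, the other ligand of FLT4, stood at 3.48, 3.59 and 1.13 CPM across black replicates 1 to 3, and 5.81, 4.88 and 7.65 CPM across white replicates 4 to 6 (log2 fold change -1.17, SE 0.50). Each had its 3 black values below its 3 white values, as did 4 of the 23 genes, against 4.99% of all genes. In 1 of the 23, against 3.81% of all genes, the 3 black values lay above: HIF1A, a transcription factor of the hypoxia response chosen after its values were seen, stood at 140.3, 145 and 196 CPM across black replicates 1 to 3, and 118, 124 and 127 CPM across white replicates 4 to 6 (log2 fold change 0.38, SE 0.19).

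Endothelial genes outside the member list had the order of the blood vessel members among the black libraries. Of 30 tested genes, 15 were highest in black replicate 1, against 26 of the 37 members and 30.3% of all genes. Over all 30 the mean log2 level was 0.37, -0.39 and -0.14 in black replicates 1 to 3, against 0.03 to 0.09 in the white libraries, and 0 passed over all genes. ADGRL4, an adhesion receptor of sprouting endothelium, had the smallest p of them, at 23.3, 15.5 and 19.7 CPM across black replicates 1 to 3, and 36.1, 29.3 and 33.2 CPM across white replicates 4 to 6. All black values lay below all white values (log2 fold change -0.75, SE 0.21), as for 2 of the 30 genes, against 4.99% of all genes. In 0 of the 30 they lay above, against 3.81%. At an unadjusted edgeR p under 0.05, 1 of the 30 was higher (ACKR1) and 1 lower (ADGRL4), against 1.65% and 1.75% of all genes. Of 11 other tested genes of lymphatic vessels, 0 passed and 6 were highest in black replicate 1, against 30.3% of all genes. VEGFD, described above, was the one of them with an unadjusted p under 0.05, against 3.4% of all genes. FOXC2, a transcription factor of lymphatic valves chosen after its values were seen, went the other way from VEGFD. It stood at 4.26, 2.87 and 2.64 CPM across black replicates 1 to 3, and 1.71, 1.64 and 2.34 CPM across white replicates 4 to 6 (log2 fold change 0.78, SE 0.38). Its 3 black values lay above its 3 white values, as for 1 of the 11 genes, against 3.81% of all genes. In 1 of the 11, VEGFD, they lay below, against 4.99%. The mean log2 level of the 11 genes was 0.46, 0.16 and -0.56 in black replicates 1 to 3, against -0.06 to 0.02 in the white libraries.

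Genes of mural cells, the pericytes and smooth muscle cells around vessels, had the order of the blood vessel members among the black libraries. The list holds genes of smooth muscle in general, such as MYH11, and the share from outside vessels was not tested. The mean log2 level of 14 tested mural genes was 0.47, -0.53 and -0.22 in black replicates 1, 2 and 3, against 0.08 to 0.12 in the white libraries. None of the 14 passed, and without black replicate 1 12 averaged less in black-coated skin, against 50.3% of all genes. Macrophage genes had the order of the lymphatic set among the black libraries, with a mean log2 level of 1.83, 0.47 and -1.04 in black replicates 1, 2 and 3, against -0.48 to -0.36 in the white libraries. Mast cell genes had 2.24 in black replicate 1 and keratinocyte genes -1.17. Of 9 tested keratinocyte genes, 2 had an unadjusted edgeR p under 0.05, both lower in black-coated skin, against 1.75% of all genes. KRT10 had 90.8, 25.9 and 36.2 CPM in black replicates 1 to 3 and 670, 386 and 139 CPM in white replicates 4 to 6. Its log2 fold change was -2.97, SE 0.70. KRT1 had 78.1, 6.60 and 27.4 CPM in black replicates 1 to 3 and 674, 371 and 70.5 CPM in white replicates 4 to 6. Its log2 fold change was -3.32, SE 1.07. The fibroblast list lay at 0.17, 0.73 and -1.51 in black replicates 1, 2 and 3, against -0.21 to 0.52 in the white libraries. The part of tissue composition in the levels of the vessel genes was not tested. Haemoglobin reads were few: all 15 loci described as haemoglobin subunits together held between 2 and 18 reads per library. ALAS2, the erythroid enzyme of haem synthesis, had 0. Of the erythroid markers with reads, AHSP ran from 0.143 to 0.568 CPM in black-coated and from 0.235 to 0.638 CPM in white-coated skin. SLC4A1 ran from 0.071 to 2.77 CPM in black-coated and from 1.42 to 1.99 CPM in white-coated skin.

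**Figure D5:**
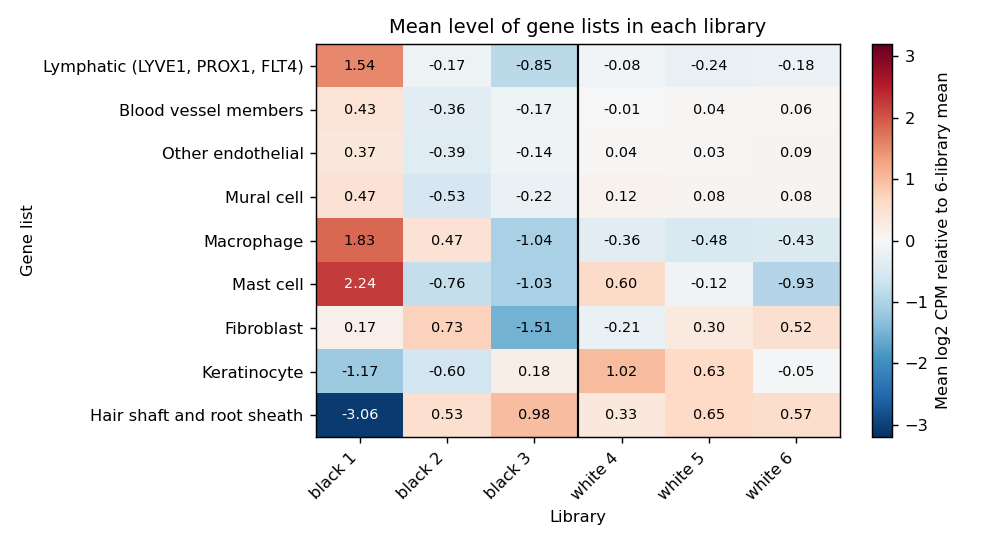
Mean log2 CPM of 9 gene lists (rows) in each library (columns) relative to the mean of the 6 libraries, with the value printed in each cell. In black replicate 1 the lymphatic, macrophage and mast cell rows are high and the hair shaft row is low, and the blood vessel, other endothelial and mural rows share 1 order across the black libraries.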

How the data were processed

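Total RNA of 6 goat skin libraries was analysed, 3 from black-coated and 3 from white-coated skin by the region in the labels. The deposited table holds a read count and an FPKM value for each transcript and library, both made by the authors. Tools listed by the submitters' processing notes are Cufflinks, HISAT2 and Bowtie2 (version 2.0.6), with no role for any. How reads were counted, on which build and annotation, and whether by strand is not given in the sources used here; overlapping and antisense genes may therefore share reads. Of 53266 transcript rows, 189 without a gene name (0.00376% to 0.0675% of reads per library) and 1770 transfer RNA rows were left out. Each of 26951 genes was represented by its row with the largest total, since the rows of a gene repeat most of its counts (of the 15 members with several rows, the lowest row total was at least 81.1% of the highest), while FPKM, which is divided among rows, was summed. All 6 count columns and all 6 FPKM columns were used, and no column of sample values was left out.

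The counts went into edgeR 4.0.16 under R 4.3.3 (low counts filtered by filterByExpr, TMM scaling, robust quasi-likelihood test, black over white, Benjamini-Hochberg adjustment over all 15778 genes tested, threshold 0.05). Log2 levels used a prior count of 1. The alternatives were DESeq2 1.42.0, limma 3.58.1 with voom or on log2 of FPKM plus a pseudocount, other scalings, filters and rows, and leaving out libraries; a Y-linked term, leaving out black replicates 1 and 2, and a blood vessel set of 4 markers were added after seeing the data. The 38 members and all gene lists were chosen with earlier results of these data known. Values in every library were to be given for LYVE1, PROX1, FLT4, 11 set receptors, ligands and markers, every gene that passed, and the 12 members with the smallest p, and for up to 4 genes of each other list with an unadjusted p under 0.05; other members given per library were chosen after their values were seen. The blood vessel set left out the lymphatic genes and VEGFA, VEGFB, VEGFC, ANGPT1 and JAG1, which other cells largely make. It kept genes of endothelium in general, such as CDH5 and PECAM1, which are not restricted to blood vessels.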

Additional observations from a re-analysis of the deposited data

How the results depend on the processing

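No member passed the test over all genes under any setting tried. The number of all genes that passed was 0 with all libraries and 78 by DESeq2, ran from 0 to 16 when 1 library was left out, and was 39 without black replicates 1 and 2. The lymphatic minus blood vessel contrast, 0.40 log2 units, ran from -0.05 to 0.85 when 1 library was left out. No paired analysis was made, since the labels do not say whether any samples share a goat and the groups share no replicate number. The sign of a log2 fold change (black over white) turned for some members, none of them past the threshold, and the cause was not tested. With library totals as the scale, the values were PECAM1 0.031, CLDN5 0.062. By limma-voom they were FLT4 -0.010, VWF -0.044, ESAM -0.042, RELN -0.021, and ANGPT1 was -0.72 with its sign kept. On log2(FPKM + 1) they were PECAM1 0.021, VWF -0.019, and on log2(FPKM + 0.1) they were PECAM1 0.021, VWF -0.025. With the Y-linked term they were PROX1 -0.12, FLT4 -0.56, KDR -0.55, TEK -0.36, VWF -0.48, SELP -0.053, TIE1 -0.95, EMCN -0.48, PDPN -0.34, ESAM -0.81, NOS3 -0.34, MMRN1 -0.052, RELN -0.63. Leaving out black replicates 1 and 2 sets black replicate 3 alone against the white libraries, so the values describe that library. In that setting they were LYVE1 -0.37, PROX1 -1.07, FLT4 -0.66, VWF -0.30, VEGFA -0.15, VEGFB -0.044, TIE1 -0.12, ERG -0.30, SOX17 0.14, EMCN -0.28, PDPN -0.14, ESAM -0.025, MMRN1 -0.90, RELN -0.79, CD34 -0.088. When 1 library was left out, the ranges of the members whose sign turned were ANGPT1 -1.34 to 0.35, CDH5 -0.57 to 0.011, CLDN5 -0.43 to 0.23, EGFL7 -0.30 to 0.063, EMCN -0.38 to 0.42, ERG -0.044 to 0.47, ESAM -0.36 to 0.35, FLT4 -0.61 to 0.69, JAG1 -0.14 to 0.50, KDR -0.17 to 0.48, MMRN1 -0.42 to 1.11, NOTCH4 -0.64 to 0.014, PDPN -0.24 to 0.24, PECAM1 -0.12 to 0.065, PROX1 -0.53 to 1.22, RELN -0.71 to 0.79, SOX17 -0.22 to 0.11, TIE1 -0.47 to 0.54, VWF -0.38 to 0.22. DESeq2, DESeq2 size factors, both other count filters and the median transcript row turned no member. Whether deeper libraries would change a call was not tested.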
